A study of Mus musculus with 10 samples.

Results

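The genes described here encode mostly proteins of the spliceosome, the machine that removes introns from newly made transcripts. They were chosen by name: every gene of the authors' RNA table whose symbol starts with Lsm and a digit, Snrp, Sf3a or Sf3b and a digit, Srsf or Sfrs and a digit, or U2af, together with the KLF3 and KLF1 peaks that the authors assigned to these genes. The table held 47 such genes among 23309, made up of 12 LSM, 12 SNRP, 8 SF3, 12 SR and 3 U2AF genes. Of the 47, the authors tested 46 for a difference between groups, out of 9619 genes tested in all, and Srsf12 was the gene left untested. The rule uses names only, so it also takes in genes that act outside the spliceosome, such as Lsm1, Lsm10, Lsm11, Lsm14a and Lsm14b.

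Introns are recognised by small nuclear ribonucleoproteins (snRNPs), each a short RNA bound by a ring of Sm or LSm proteins and by proteins particular to that snRNP. U1 pairs with the start of the intron, U2AF reads its end, and the SF3A and SF3B subunits of the U2 snRNP seat U2 on the branch point. SR proteins bind exons and help the snRNPs to choose splice sites. Most of these genes are used across cell types. Developing red cells, which make large amounts of a few transcripts and change many splice choices as they mature, depend on splicing as other cells do.

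Newly made RNA was compared between J2E-KLF3-ER and J2E. J2E is an immortalised mouse fetal liver erythroid line, used here without the KLF3-ER transgene. J2E-KLF3-ER is J2E carrying KLF3, a repressor of the Krüppel-like factor family, fused to an estrogen receptor domain that 4-hydroxytamoxifen activates. Cells received 200 nM of the drug, and RNA made during 30 minutes of 500 µM 4-thiouridine (4sU) was captured and sequenced. For the RNA libraries the time in the drug is not given in the labels. Clones A, C and E gave 1 J2E-KLF3-ER library each, all with tamoxifen, and of the 3 J2E libraries the third was treated with ethanol vehicle in place of tamoxifen. The promoter driving the fusion is not given in the labels. KLF3 binding was mapped with an estrogen receptor antibody in J2E-KLF3-ER clone C. KLF1 binding, that of the main erythroid activator of the family, was mapped with a KLF1 antibody in K1-ER clones A and C, which are Klf1-null erythroblasts carrying a KLF1-ER fusion. Both factors were mapped after 3 hours of tamoxifen, with 1 library and 1 input per factor, each made from 3 pooled replicates.

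The RNA table gives 1 pooled FPKM value per group (fragment counts divided by transcript length and by library size), so depth per library is unknown and no SD stands beside a level. No J2E-KLF3-ER library without tamoxifen entered the comparison, so activation of the fusion cannot be told apart from differences between the lines and clones. The labels do not say that the J2E libraries came from separate cultures, so their spread may be technical, and it includes the vehicle-treated library. The spread of the J2E-KLF3-ER libraries is between clones. How the p-values use these spreads cannot be said, as the tool of the comparison is not given. Klf3 was at 180 FPKM in J2E-KLF3-ER and 7.46 FPKM in J2E in the authors' deposited table, where transcripts of the fusion and of the resident gene share a row. Erythroid markers were present, with Gata1 at 25.2 FPKM in J2E-KLF3-ER and 30.6 FPKM in J2E and Hba-a2 at 103 FPKM in J2E-KLF3-ER and 133 FPKM in J2E in the authors' deposited table. The globin gene Hbb-b2 was near 0 in J2E-KLF3-ER, at 0.00488 FPKM, against 12.4 FPKM in J2E in the authors' deposited table. That difference did not pass the authors' test (p = 0.265, q = 0.647). Alas2 was higher by value, at 9.28 FPKM in J2E-KLF3-ER and 6.21 FPKM in J2E, without passing the test (q = 0.262). It was the only 1 of the tested erythroid markers with a positive log2 fold change, and 8 were negative. Of 9 erythroid marker genes tested, of 11 listed, 3 fell, namely Klf1, Epor and Slc4a1, and the summed level of the 9 was 366 FPKM in J2E-KLF3-ER and 544 FPKM in J2E in the authors' deposited table. Of 12 markers of other blood cells, 10 were left untested by the authors, with Ptprc at 0 FPKM in both groups and Mpo the highest at 1.41 FPKM in J2E-KLF3-ER and 2.06 FPKM in J2E in the authors' deposited table. The megakaryocyte genes Pf4, at 92.4 FPKM in J2E-KLF3-ER and 80.1 FPKM in J2E, and Itga2b, at 80.8 FPKM in J2E-KLF3-ER and 75 FPKM in J2E, made up most of the list's sum of 176 FPKM in J2E-KLF3-ER and 160 FPKM in J2E in the authors' deposited table. The part of these marker levels in the results below was not tested. In such bulk cultures fewer cells of a type and less RNA per cell cannot be told apart. The rows of 6 members (Sf3a3, Sf3b3, Sfrs18, Snrpa, Snrpf and Snrpn) overlap that of another gene, and whether the counting used strand is not stated, so their levels are less certain.

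All but a single one of the 47 genes were transcribed at a readily measured level in both lines. Every member except Srsf12 had at least 1 FPKM in both groups, and the median level of the tested members was 46.2 FPKM in J2E-KLF3-ER and 40.8 FPKM in J2E, while all genes tested had medians of 12.6 FPKM in J2E-KLF3-ER and 12.4 FPKM in J2E in the authors' deposited table. The SR genes stood highest, with a median of 93.6 FPKM in J2E-KLF3-ER and 85.1 FPKM in J2E, and LSM genes lowest, with medians of 23.8 FPKM in J2E-KLF3-ER and 20.6 FPKM in J2E in the authors' deposited table. The order at the top was the same in both lines: Srsf6, Srsf5, Srsf10, Sf3b3, Srsf2 and Srsf11. Without values per library it cannot be said which neighbours in this order differ beyond their spread. Srsf12, an SR gene, was listed at 0.0657 FPKM in J2E-KLF3-ER and 0.291 FPKM in J2E in the authors' deposited table.

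**Figure D1:**
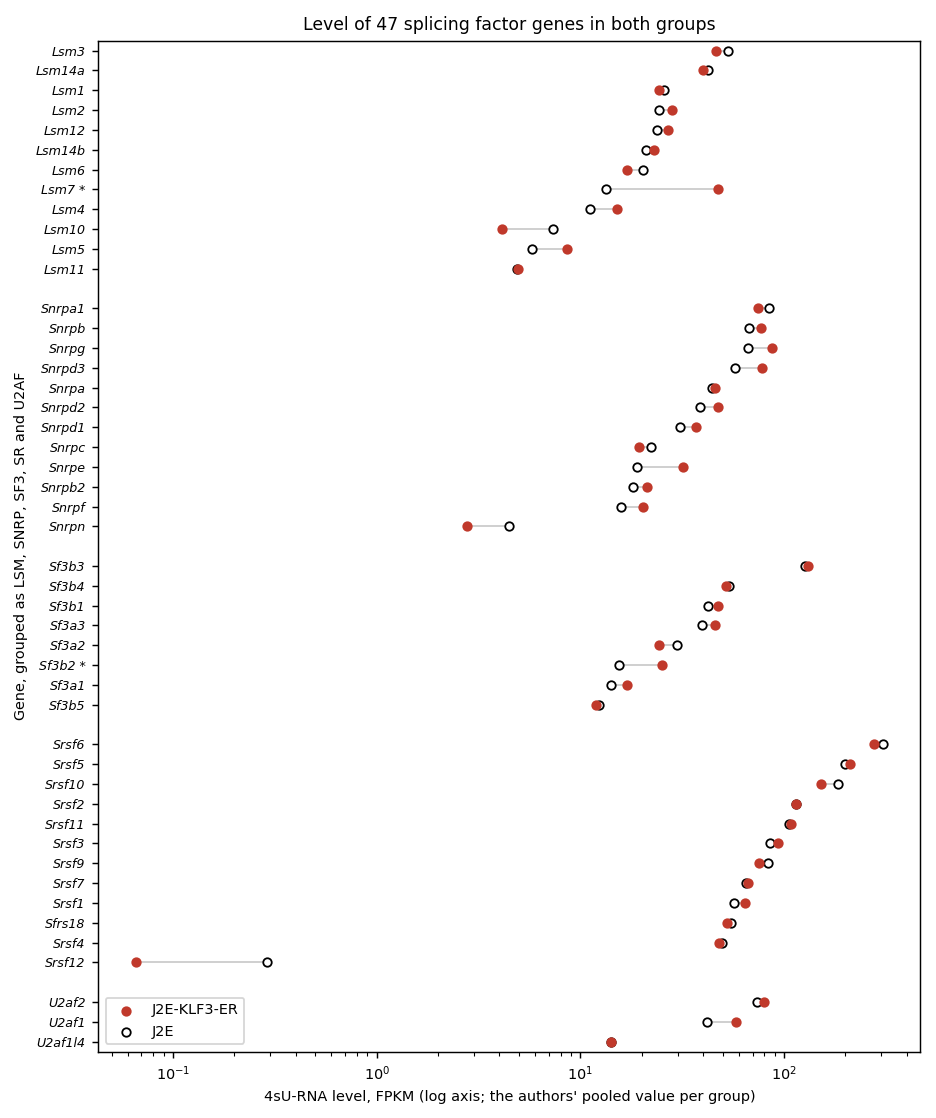
Level of each of the 47 genes in J2E-KLF3-ER (red) and J2E (open), as the authors' single pooled FPKM per group on a log axis, ordered within family by the J2E level. Asterisks mark Lsm7 and Sf3b2, the genes called changed; for most other genes both points nearly coincide.

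Most of the set differed little between the lines. At the authors' q-value below 0.05, adjusted over all 9619 genes they tested, 2 of 46 members rose and 0 fell, a share of 4.35% rising, against a background of 0.821% of tested genes rising and 1.90% falling. The tool behind this comparison is not given in the sources used here, and no other tool could be run on pooled values. At an unadjusted p below 0.05, 5 members were higher and 0 lower in J2E-KLF3-ER, where 7.93% of all tested genes were higher and 7.47% lower. The median log2 fold change of the members was 0.06 and that of all tested genes 0.03, and the members ran from -0.83 at Lsm10 to 1.83 at Lsm7 in the authors' deposited table. In 40 of 46 members, or 87.0%, the log2 fold change was smaller than 0.5 in size, as in 82.7% of all tested genes.

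Lsm7 rose furthest of the set. Its protein sits in both LSm rings, the nuclear one that holds the end of the U6 RNA and the cytoplasmic one that promotes removal of the mRNA cap. The gene, on mm9 chromosome 10 at 80315569 to 80317954, was at 47.5 FPKM in J2E-KLF3-ER, against 13.3 FPKM in J2E, with 1.83 as log2 fold change in the authors' deposited table (authors' p = 5e-05, q = 0.00408). That p, the smallest of the comparison, was shared by 118 genes, Sf3b2 among them, so it does not rank them. Lsm7 ranked 8 among the 79 rising genes by size of change, and neither factor had a peak assigned to it. The neighbouring gene Sppl2b, whose row lies 65 bp away, was at 11.2 FPKM in J2E-KLF3-ER and 8.79 FPKM in J2E, a log2 fold change of 0.34 that did not pass the authors' test (q = 0.477 in the authors' deposited table).

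Lsm1 to Lsm6, which encode further subunits of these rings, were not called. Their log2 fold changes lay between -0.26 and 0.57 in the authors' deposited table. Lsm5, a subunit of both rings, was at 8.62 FPKM in J2E-KLF3-ER and 5.8 FPKM in J2E in the authors' deposited table. Lsm4, also in both rings, was at 15.2 FPKM in J2E-KLF3-ER and 11.2 FPKM in J2E in the authors' deposited table. Lsm2 was at 28.1 FPKM in J2E-KLF3-ER and 24.3 FPKM in J2E in the authors' deposited table. These 3 ring genes were higher by value in J2E-KLF3-ER without passing the test. Lsm1, which marks the cytoplasmic ring, was at 24.4 FPKM in J2E-KLF3-ER and 25.8 FPKM in J2E in the authors' deposited table. Lsm3, the most transcribed LSM gene in J2E, was at 46.4 FPKM in J2E-KLF3-ER and 53 FPKM in J2E (log2 fold change -0.19, p = 0.415, q = 0.757 in the authors' deposited table). Lsm6 was at 16.9 FPKM in J2E-KLF3-ER and 20.2 FPKM in J2E in the authors' deposited table. Those 3 were lower by value in J2E-KLF3-ER. Whether Lsm7 differed more than the other ring genes was not tested.

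Lsm10 and Lsm11 replace a pair of Sm proteins in the U7 snRNP, which trims the ends of replication-dependent histone transcripts. Lsm10 was at 4.13 FPKM in J2E-KLF3-ER and 7.34 FPKM in J2E, a log2 fold change of -0.83 that did not pass the test in the authors' deposited table (p = 0.0582, q = 0.347). Lsm11 was at 4.96 FPKM in J2E-KLF3-ER and 4.87 FPKM in J2E in the authors' deposited table. Both were among the 5 least transcribed members in J2E. Of the larger LSM proteins, Lsm14a and Lsm14b belong to cytoplasmic RNA granules. Lsm14a was at 40.1 FPKM in J2E-KLF3-ER and 42.4 FPKM in J2E in the authors' deposited table. Lsm14b was at 23.1 FPKM in J2E-KLF3-ER and 21.1 FPKM in J2E in the authors' deposited table. Lsm12 was at 27 FPKM in J2E-KLF3-ER and 23.9 FPKM in J2E in the authors' deposited table. None of these 3 passed the test.

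The 7 genes of the canonical Sm ring, which encircles the RNA of the U1, U2, U4 and U5 snRNPs, all had positive log2 fold changes; this subset was taken by role after the values were seen. Their median was 0.36, with a range of 0.19 to 0.76, in the authors' deposited table. Of the 7, 0 passed the authors' q and 2 were higher at an unadjusted p below 0.05. Of all tested genes 7.93% were higher and 7.47% lower at that p, and 0.821% rose at the authors' q. Over all tested genes 53.5% of log2 fold changes were positive and the median was 0.03. Snrpe had the largest value of the ring, at 31.9 FPKM in J2E-KLF3-ER and 18.9 FPKM in J2E, with 0.76 as log2 fold change in the authors' deposited table (p = 0.0265, q = 0.239). Snrpd3 was at 78.1 FPKM in J2E-KLF3-ER and 57.5 FPKM in J2E, with 0.44 as log2 fold change in the authors' deposited table (p = 0.0484, q = 0.32). Snrpe lies on chromosome 1, where the median of all tested genes was 0.16, and Snrpd3 on chromosome 10, where it was 0.02, both from the authors' deposited table. Snrpg, the most transcribed SNRP gene in J2E-KLF3-ER, was at 87.7 FPKM there and 66.2 FPKM in J2E, a log2 fold change of 0.41 (q = 0.475 in the authors' deposited table). Snrpf was at 20.3 FPKM in J2E-KLF3-ER and 15.8 FPKM in J2E in the authors' deposited table, in a row that overlaps those of Ccdc38 and an unnamed gene. Snrpd1 and Snrpd2 belong to the part of the ring that binds the snRNA first, before the ring closes. Snrpd1 was at 37 FPKM in J2E-KLF3-ER and 30.8 FPKM in J2E in the authors' deposited table. Snrpd2 was at 47.5 FPKM in J2E-KLF3-ER and 38.6 FPKM in J2E in the authors' deposited table. Snrpb, which pairs with Snrpd3 in the ring, was at 76.8 FPKM in J2E-KLF3-ER and 67.3 FPKM in J2E in the authors' deposited table. Each gene of the ring was thus higher by value in J2E-KLF3-ER, and none was called.

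The SNRP genes outside the ring showed no shared direction. Snrpa and Snrpc encode proteins particular to the U1 snRNP. Snrpa was at 45.9 FPKM in J2E-KLF3-ER and 44.5 FPKM in J2E in the authors' deposited table, in a row that overlaps that of BC024978. Snrpc was at 19.4 FPKM in J2E-KLF3-ER and 22.1 FPKM in J2E in the authors' deposited table. Snrpa1 and Snrpb2 encode the pair of U2 snRNP proteins that bind a stem of the U2 RNA. Snrpa1, the most transcribed SNRP gene in J2E, was at 74.1 FPKM in J2E-KLF3-ER and 84.4 FPKM in J2E, a log2 fold change of -0.19 (p = 0.281, q = 0.66 in the authors' deposited table). Snrpb2 was at 21.3 FPKM in J2E-KLF3-ER and 18.2 FPKM in J2E in the authors' deposited table. Snrpn, an imprinted relative of Snrpb known chiefly from neurons, was the least transcribed of the tested members, at 2.79 FPKM in J2E-KLF3-ER and 4.47 FPKM in J2E (log2 fold change -0.68, q = 0.46 in the authors' deposited table). Its row overlaps that of Snurf, made from the same transcript, so the reads of these genes cannot be separated here.

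Sf3b2 was the other member that rose. Its protein is a subunit of SF3B, the U2 snRNP component that contacts the branch point. The gene, on mm9 chromosome 19 at 5273920 to 5295455, was at 25.2 FPKM in J2E-KLF3-ER, against 15.4 FPKM in J2E, with 0.71 as log2 fold change in the authors' deposited table (p = 5e-05, q = 0.00408). It ranked 57 of the 79 rising genes by size of change and had no peak of either factor. Its neighbour Pacs1, 801 bp away, had the opposite sign, at 15.5 FPKM in J2E-KLF3-ER and 22 FPKM in J2E, and did not pass the test (q = 0.107 in the authors' deposited table).

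The partners of Sf3b2 in the same complex stayed close to equal by value. Sf3b1, the scaffold subunit that surrounds the branch-point helix, was at 47.4 FPKM in J2E-KLF3-ER and 42.5 FPKM in J2E, a log2 fold change of 0.16 (p = 0.322, q = 0.694 in the authors' deposited table). Sf3b3, the most transcribed SF3 gene, was at 131 FPKM in J2E-KLF3-ER and 127 FPKM in J2E, a log2 fold change of 0.05 (p = 0.748, q = 0.924 in the authors' deposited table). Its row overlaps that of the snoRNA gene Snord111. Sf3b4, which binds RNA upstream of the branch point, was at 51.9 FPKM in J2E-KLF3-ER and 53.4 FPKM in J2E in the authors' deposited table. Sf3b5, a small subunit, was at 11.9 FPKM in J2E-KLF3-ER and 12.4 FPKM in J2E in the authors' deposited table. SF3A is the partner complex of SF3B in the U2 snRNP, and its subunits differed in sign. Sf3a1 was at 17 FPKM in J2E-KLF3-ER and 14.2 FPKM in J2E in the authors' deposited table. Sf3a2 was at 24.3 FPKM in J2E-KLF3-ER and 29.9 FPKM in J2E in the authors' deposited table. Sf3a3 was at 45.6 FPKM in J2E-KLF3-ER and 39.6 FPKM in J2E in the authors' deposited table. None of these 7 genes passed the test. Whether Sf3b2 differed more than its partners was not tested.

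SR genes were the most transcribed and the least different of the families by value. Their log2 fold changes lay between -0.27 and 0.19 with a median of -0.01 in the authors' deposited table; 0 of 11 tested passed the authors' q or an unadjusted p of 0.05. Srsf6, at 276 FPKM in J2E-KLF3-ER and 306 FPKM in J2E, was the highest member of all, with a log2 fold change of -0.15 (p = 0.325, q = 0.695 in the authors' deposited table). Srsf5 was at 211 FPKM in J2E-KLF3-ER and 200 FPKM in J2E in the authors' deposited table. Srsf10, which in its unphosphorylated form represses splicing, had the most negative value of the family, at 152 FPKM in J2E-KLF3-ER and 183 FPKM in J2E (log2 fold change -0.27, p = 0.0806, q = 0.401 in the authors' deposited table). Srsf1 had the most positive, at 64.6 FPKM in J2E-KLF3-ER and 56.8 FPKM in J2E in the authors' deposited table. Srsf2, which binds exonic enhancers, was at 114 FPKM in both groups in the authors' deposited table. Srsf11 was at 108 FPKM in J2E-KLF3-ER and 106 FPKM in J2E in the authors' deposited table. Srsf3, the smallest SR protein, was at 93.6 FPKM in J2E-KLF3-ER and 85.1 FPKM in J2E in the authors' deposited table. It has a pseudogene copy in RefSeq, as has Snrpc, and how shared reads were counted is not stated. Srsf9 was at 75.6 FPKM in J2E-KLF3-ER and 83.2 FPKM in J2E in the authors' deposited table. Srsf7, which like Srsf3 also aids mRNA export, was at 66.7 FPKM in J2E-KLF3-ER and 65.1 FPKM in J2E in the authors' deposited table. Srsf4 was at 48.1 FPKM in J2E-KLF3-ER and 49.8 FPKM in J2E in the authors' deposited table. Of these genes none was called. Sfrs18, an older symbol for the gene RefSeq calls Pnisr, was at 52.3 FPKM in J2E-KLF3-ER and 54.9 FPKM in J2E in the authors' deposited table.

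U2AF recognises the end of the intron as a pair of proteins, the larger encoded by U2af2 and reading the pyrimidine tract, the smaller encoded by U2af1 and reading the final AG. U2af1 was at 58 FPKM in J2E-KLF3-ER and 42 FPKM in J2E, a log2 fold change of 0.46 that reached an unadjusted p of 0.0239 but not the authors' threshold (q = 0.228 in the authors' deposited table). U2af2, the more transcribed of the pair, was at 79.6 FPKM in J2E-KLF3-ER and 73.3 FPKM in J2E, a log2 fold change of 0.12 (p = 0.468, q = 0.798 in the authors' deposited table). U2af1l4, a shorter relative of U2af1, was at 14.1 FPKM in both groups in the authors' deposited table. No U2AF gene was called.

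**Figure D2:**
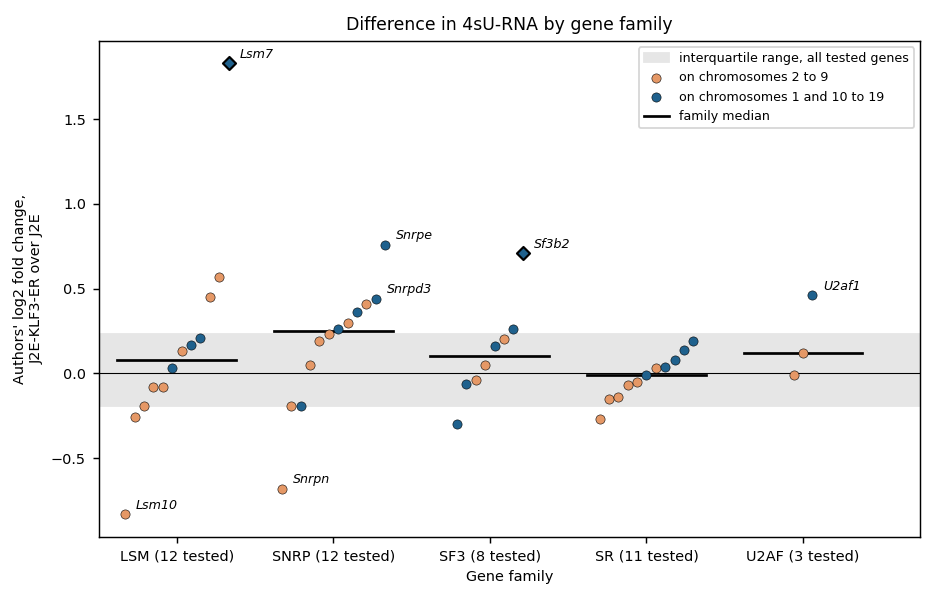
The authors' log2 fold change, J2E-KLF3-ER over J2E, of the 46 tested members by family, colored by chromosome group, with family medians as bars and the interquartile range of all tested genes (-0.19 to 0.23) in grey. Diamonds mark Lsm7 and Sf3b2, which were called; every labelled gene with a positive value lies on chromosome 1 or 10 to 19.

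The members' values differed by chromosome. Earlier results on these data had shown that genes of chromosomes 1 and 10 to 19 sat slightly higher as a whole than those of chromosomes 2 to 9 and X. The median log2 fold change was 0.11 over 4680 tested genes of chromosomes 1 and 10 to 19 and -0.03 over 4938 of the rest, from the authors' deposited table. Of the members, 20 lie in the first chromosome group, where 16 had positive values and the median was 0.18, and 26 in the second, where 12 were positive and the median was -0.02. All 5 members with an unadjusted p below 0.05, Lsm7, Sf3b2, Snrpe, U2af1 and Snrpd3, lie on chromosomes 1 and 10 to 19. There, 11.8% of all tested genes were higher at that p and 1.15% rose at the authors' q, against 4.31% and 0.506% on chromosomes 2 to 9 and X. Set against the median of its own chromosome, the log2 fold change was 1.81 for Lsm7 and 0.59 for Sf3b2, both still positive. On that scale it was 0.60 for Snrpe, 0.42 for Snrpd3 and 0.36 for U2af1. The Sm ring ran from 0.21 to 0.60 on that scale, with 7 of 7 values positive and a median of 0.34. The cause of the chromosome difference was not tested.

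The authors' KLF3 list assigned 12 peaks to 10 of the 47 genes, all 10 tested, or 21.7% of tested members, where 32.4% of all tested genes had a KLF3 peak. By family these were 4 LSM genes (Lsm1, Lsm10, Lsm11 and Lsm14b), 2 SF3 genes (Sf3a3 and Sf3b1), 3 SR genes (Srsf2, Srsf5 and Srsf10) and U2af1, and no SNRP gene. Enrichment over input is the authors' own value for each peak. At the members it had a median of 7.26, against 7.94 over the 4579 peaks of the list. The authors annotated 9 of the 12 as promoter peaks, and 66.5% of the whole list. The highest lay at Srsf5, at chr12:82047087-82047378 (mm9), 737 bp downstream of the start, with an enrichment of 16.5 and rank 407. A second Srsf5 peak, with an enrichment of 6.92, lay 52 bp upstream. At Sf3b1 the summit lay 57 bp upstream of the start with an enrichment of 10.3, and at U2af1 226 bp upstream with 8.58. Srsf2 had its summit 332 bp upstream, with an enrichment of 7.6, and Srsf10 207 bp upstream, with 6.84. Both Lsm11 summits belonged to 1 peak interval, 140 bp upstream with an enrichment of 6.08 and 197 bp downstream with 5.39. Lsm1, with an enrichment of 4.69 at 103 bp upstream, and Lsm14b, with 5.03 at 563 bp downstream, had the lowest. In 9 of 10 genes with a KLF3 peak a summit lay within 1 kb of the start, in a list of mostly promoter peaks. The share of all genes at that distance was not taken.

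KLF1 peaks at the members lay mostly outside promoters, as did those of the whole list. The KLF1 list assigned 8 peaks to 5 members, Sf3a3, Sf3b1, Lsm4, Lsm10 and Srsf9, or 10.9% of tested members, against 19.1% of all tested genes. Of the 8 the authors annotated 2 as promoter peaks, at Lsm10 and Srsf9, and 31.6% of the list's 3800 peaks. Their median enrichment was 8.62, against 9.72 over the list. Lsm4 had 3, a distal one 9120 bp downstream of the start with an enrichment of 15.9 and intronic ones at 1646 and 4397 bp with 7.21 and 7.09. Srsf9 had its KLF1 summit 747 bp upstream, with an enrichment of 10.9.

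Peaks of both factors were assigned to 3 members, 6.52% of those tested, against 13.1% of all tested genes, and the peaks overlapped at 2 of them. At Sf3a3 a distal site carried a KLF3 peak with its summit 5688 bp upstream of the start and an enrichment of 15.3. The same site held the highest member peak of the KLF1 list, 5675 bp upstream, with an enrichment of 40.2 and rank 86. The KLF3 interval chr4:124386260-124386570 lay within the KLF1 interval chr4:124386205-124386647 (mm9), sharing 311 bp, with summits 13 bp apart. The site lies 562 bp from Fhl3, a LIM-domain gene, at 20.1 FPKM in J2E-KLF3-ER and 23.3 FPKM in J2E (q = 0.687 in the authors' deposited table). Sf3a3 itself had a log2 fold change of 0.20 (p = 0.264, q = 0.646 in the authors' deposited table). At Lsm10 both peaks lay on the start, the KLF3 summit 3 bp and the KLF1 summit 22 bp upstream, with enrichments of 11.1 for KLF3 and 7.69 for KLF1. At Sf3b1 the closest summits were 3659 bp apart, since its KLF1 peaks lay 3716 bp upstream (enrichment 9.56) and 4490 bp downstream (6.83) of the start. None of the 3 genes was called, and the authors' own list marks none of the 20 member peaks as lying at a differentially expressed gene.

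**Figure D3:**
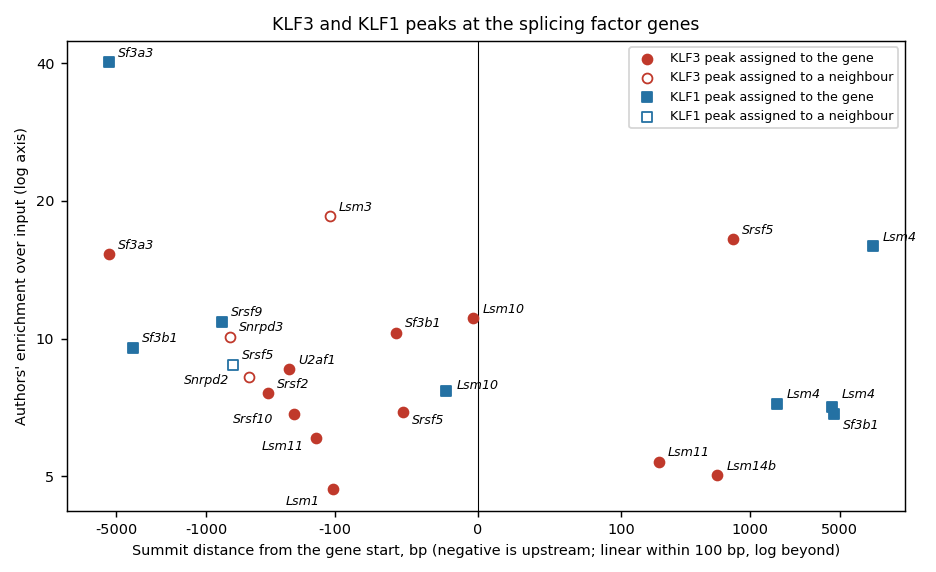
Summit distance from the gene's start (negative is upstream) against the authors' enrichment over input on a log axis, for KLF3 (red circles) and KLF1 (blue squares) peaks. Filled symbols are peaks assigned to the gene and open symbols peaks within 1 kb that the authors assigned to a neighbour; most KLF3 peaks lie near 0, and the highest of the KLF1 peaks, 40.2, lies at the distal Sf3a3 site.

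Several members share a start region with another gene, and the authors' nearest-start rule then gave the peak to the neighbour. Among the 40 members whose strand was known, 4 further peaks had their summit within 1 kb of the start. The highest was a KLF3 peak with an enrichment of 18.5 and rank 274, 109 bp upstream of Lsm3, which the authors assigned to the DNA repair gene Xpc, 146 bp from Lsm3. KLF3 peaks also lay 465 bp upstream of Snrpd2, assigned to Qpctl (enrichment 8.26), and 647 bp upstream of Snrpd3, assigned to Gucd1 (10.1). A KLF1 peak with an enrichment of 8.78, assigned to Gm20337, lay 615 bp upstream of Srsf5. With these, 2 SNRP genes had a KLF3 summit within 1 kb of their start although none was assigned to them. Of 7 members without a known strand, U2af2 had a KLF3 summit 232 bp from an end of its row, assigned to Epn1 (7.6). At the shared Snrpd3 start the values of the neighbours had opposite signs: Gucd1 was at 4.51 FPKM in J2E-KLF3-ER and 7.79 FPKM in J2E, a log2 fold change of -0.79 that did not pass the test (q = 0.0743 in the authors' deposited table).

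Neither called member had an assigned KLF3 peak, and members with one differed in sign, with 6 positive and 4 negative log2 fold changes. Lsm10, with the most negative value of the tested members (-0.83), had a KLF3 summit 3 bp upstream of its start. U2af1, with the most positive value among members with a KLF3 peak (0.46), had one 226 bp upstream. Neither Lsm10 nor U2af1 was called in the authors' deposited table. The 10 members with an assigned KLF3 peak had a median log2 fold change of 0.05 and 0 were called; the 36 tested members without one had a median of 0.08 and held both called genes. Over all tested genes the median was -0.01 with a KLF3 peak, where 16 rose and 92 fell of 3116. Without one it was 0.05, where 63 rose and 91 fell of 6503. The 5 members with a KLF1 peak had a median of 0.16, all from the authors' deposited table. Set against the chromosome medians, the median turned to -0.06 for members with a KLF3 peak, with 3 of 10 positive. On that scale it was 0.06 for members without one, with 23 of 36 positive, and 0.00 for members with a KLF1 peak. The centred median over all tested genes was -0.05 with a KLF3 peak, with 43.0% positive, and 0.02 without, with 53.3% positive. Whether members differ from other genes in this was not tested.

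KLF proteins bind CACCC-type sequences, searched here as CCNCNCCC, where N is any base, on both strands of promoter windows from RefSeq (GRCm38.p6, 250 bases before to 50 after each gene's start). This pattern also matches letters without CACCC, such as CCCCGCCC, and leaves some CACCC letters unmatched. The windows are on another build than the peaks, and whether the starts are the same was not tested. Of 47 members 38 had a window in the table. A match was present in 26 of 38, or 68.4%, against 51.9% of all 27025 genes with a window and 70.4% of those tested in the RNA comparison. The stricter CCACNCCC, contained in CCNCNCCC, was in 7, or 18.4%, against 19.7% of all genes and 25.5% of tested ones. CCAAT, the box of the factor NF-Y, was in 42.1% of members, 41.1% of all genes and 43.4% of tested ones. CCGGAAG, the core bound by ETS factors, was in 14 members, or 36.8%, against 9.93% of all genes and 23.3% of tested ones. The median GC content of the 250 bases upstream was 60.8% for members and 52.4% for all windows, which include those of untested genes. That of tested genes alone is not given here. A match is a description of the letters and not of binding.

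The 250 bases before the RefSeq start are shown for members with a RefSeq window and a KLF3 summit within 250 bp upstream of their mm9 start. For Lsm3 that peak was assigned to Xpc. The called genes Lsm7 and Sf3b2, which had no peak, are also shown. Capitals mark matches to CCNCNCCC on either strand, and each sequence runs 5′ to 3′ on the gene's strand. Where RefSeq lists several starts (U2af1, Lsm7, Sf3b2) the first listed is shown.
Lsm10 (GRCm38.p6 chr4:126096403-126096652, plus strand): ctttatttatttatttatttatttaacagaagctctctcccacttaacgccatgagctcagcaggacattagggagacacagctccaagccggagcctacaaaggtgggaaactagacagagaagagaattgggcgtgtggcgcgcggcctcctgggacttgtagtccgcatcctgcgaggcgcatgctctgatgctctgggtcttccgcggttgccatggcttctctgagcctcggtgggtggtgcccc
Sf3b1 (GRCm38.p6 chr1:55027479-55027728, minus strand): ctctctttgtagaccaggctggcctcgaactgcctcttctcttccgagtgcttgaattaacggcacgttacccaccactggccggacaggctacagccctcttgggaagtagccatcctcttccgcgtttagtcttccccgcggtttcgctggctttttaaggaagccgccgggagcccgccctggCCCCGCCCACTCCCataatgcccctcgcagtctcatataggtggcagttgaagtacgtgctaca
Srsf5 (GRCm38.p6 chr12:80945249-80945498, plus strand): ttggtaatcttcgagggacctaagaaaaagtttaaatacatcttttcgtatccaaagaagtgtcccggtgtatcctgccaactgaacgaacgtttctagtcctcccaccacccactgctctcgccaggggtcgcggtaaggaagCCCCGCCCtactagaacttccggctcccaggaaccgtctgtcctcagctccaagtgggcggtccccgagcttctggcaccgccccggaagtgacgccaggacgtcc
U2af1 (GRCm38.p6 chr17:31658765-31659014, minus strand): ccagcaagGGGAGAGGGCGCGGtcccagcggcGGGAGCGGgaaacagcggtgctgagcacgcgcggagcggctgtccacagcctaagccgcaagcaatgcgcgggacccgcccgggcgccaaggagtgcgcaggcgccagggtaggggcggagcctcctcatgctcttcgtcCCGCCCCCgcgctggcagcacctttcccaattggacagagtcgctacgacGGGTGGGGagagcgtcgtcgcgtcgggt
Srsf10 (GRCm38.p6 chr4:135855821-135856070, plus strand): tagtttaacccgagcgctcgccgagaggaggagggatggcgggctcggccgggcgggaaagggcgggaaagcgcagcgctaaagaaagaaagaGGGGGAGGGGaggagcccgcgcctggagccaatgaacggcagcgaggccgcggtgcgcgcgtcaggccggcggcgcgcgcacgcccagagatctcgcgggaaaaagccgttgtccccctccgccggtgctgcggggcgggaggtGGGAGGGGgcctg
Lsm11 (GRCm38.p6 chr11:45944936-45945185, minus strand): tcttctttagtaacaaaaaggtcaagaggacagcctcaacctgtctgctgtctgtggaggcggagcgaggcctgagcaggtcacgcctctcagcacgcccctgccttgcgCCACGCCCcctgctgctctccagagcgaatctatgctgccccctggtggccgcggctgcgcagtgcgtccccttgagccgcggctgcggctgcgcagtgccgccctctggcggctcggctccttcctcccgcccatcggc
Lsm3 (GRCm38.p6 chr6:91515785-91516034, plus strand): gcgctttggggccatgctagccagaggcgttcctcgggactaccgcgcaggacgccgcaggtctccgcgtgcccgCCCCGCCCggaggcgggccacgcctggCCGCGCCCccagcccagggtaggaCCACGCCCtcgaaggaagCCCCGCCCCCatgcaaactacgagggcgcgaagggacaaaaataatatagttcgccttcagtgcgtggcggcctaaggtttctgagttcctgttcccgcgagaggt
Lsm7 (GRCm38.p6 chr10:80855210-80855459, minus strand): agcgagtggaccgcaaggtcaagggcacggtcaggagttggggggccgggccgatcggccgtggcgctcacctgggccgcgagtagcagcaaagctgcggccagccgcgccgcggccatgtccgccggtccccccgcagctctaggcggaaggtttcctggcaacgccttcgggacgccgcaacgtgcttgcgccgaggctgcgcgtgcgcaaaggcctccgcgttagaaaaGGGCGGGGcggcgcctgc
Sf3b2 (GRCm38.p6 chr19:5295458-5295707, minus strand): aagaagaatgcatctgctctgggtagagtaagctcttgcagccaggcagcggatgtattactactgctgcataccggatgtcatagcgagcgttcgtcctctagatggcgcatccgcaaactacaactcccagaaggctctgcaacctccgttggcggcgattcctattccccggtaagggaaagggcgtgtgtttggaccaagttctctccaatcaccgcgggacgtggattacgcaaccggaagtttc

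Lsm10, whose start carried peaks of both factors, held 0 matches to CCNCNCCC in these bases. Its bases nearest the start still hold CACCC on the other strand, within ggtgggtgg, which the pattern does not match. Sf3b1 held 2 overlapping matches beginning 64 and 58 bases before its RefSeq start. Its KLF3 summit was placed 57 bp upstream of the start of its mm9 row. U2af1 held 5, of which the first pair overlaps, and Lsm3 also held 5, of which the last pair overlaps. Srsf10 held 3, beginning 157, 155 and 13 bases upstream. Srsf5 held 1, beginning 106 bases upstream, and Lsm11 held 1 of the stricter form, beginning 140 bases upstream of its RefSeq start. Its upstream KLF3 summit was placed 140 bp before the start of its mm9 row. Whether the starts are the same was not tested, so matches and summits cannot be aligned here. Of the called genes, Lsm7 held 1, beginning 18 bases upstream, and Sf3b2 held 0. Members with and without a peak thus both included promoters with and without a match.

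The rest of the splicing machinery, listed from textbook membership, had more positive than negative values and no call. Of 134 further splicing genes found in the table, all tested, 0 rose and 0 fell at the authors' q, against 0.821% and 1.90% of all tested genes. At an unadjusted p below 0.05, 18 were higher, or 13.4%, and 4 lower, against 7.93% and 7.47% of all tested genes. Of their log2 fold changes 101 were positive and 33 negative, or 75.4% positive against 53.5% of all tested genes, with a median of 0.15 in the authors' deposited table. Set against the chromosome medians 96 of 134, or 71.6%, were positive, where all tested genes divide evenly by construction. The list of U5 and tri-snRNP proteins had 16 of 17 positive and a median of 0.21, and the spliceosomal helicases 9 of 10 and 0.33. The Prpf19 complex and catalytic step factors had 17 of 22 positive and a median of 0.15, SR-related proteins and SR kinases 14 of 17 and 0.13, and other U1, U2 and minor spliceosome proteins 16 of 23 and 0.10, from the authors' deposited table. For the SMN and methylosome proteins, which assemble Sm rings onto snRNA, 12 of 14 were positive with a median of 0.21. The hnRNP and PTB proteins, which often act against SR proteins, had 15 of 26 positive and a median of 0.03, and the exon junction complex 2 of 5 and -0.11, all in the authors' deposited table. KLF3 peaks were assigned to 34 of the 134 genes, or 25.4%, and KLF1 peaks to 17, or 12.7%, against 32.4% and 19.1% of all tested genes. The hnRNP and PTB list held 12 of these KLF3 genes among its 26, or 46.2%, and the U5 and tri-snRNP list 0 among its 17 for either factor.

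**Figure D4:**
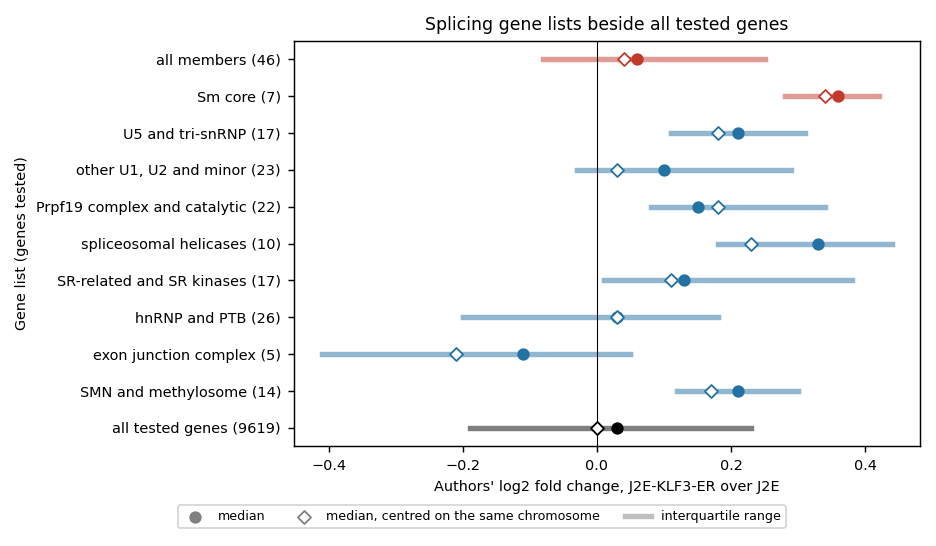
Median (circle), interquartile range (bar) and chromosome-centred median (diamond) of the authors' log2 fold change, J2E-KLF3-ER over J2E, for the members, the Sm ring, 8 lists of other splicing genes and all tested genes. The Sm ring sits highest, at 0.36, and the exon junction complex lowest, at -0.11.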

How the data were processed

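The members and gene lists were chosen with earlier results of these data known. The submitters' processing notes name mm9, TopHat2 2.0.10, MACS2 and MACS 1.4.2 without saying which step used them, and no source used here names the tool of the RNA comparison. Per the file headers, the authors deposited 1 FPKM value per group, a log2 fold change (J2E-KLF3-ER over J2E), the p-value and q-value of their test, and its statistic, a score not used here. Each deposited peak has an enrichment ratio, a summit and its nearest start site. As the table holds no value per library, the planned fallback, the authors' q below 0.05, was used, and no library could be left out. Unused per-sample columns numbered 0. The 93 rows without a gene name were dropped. Distances from the summit to the row's start equalled the authors' for all 20 member peaks; locus coordinates are as the table writes them. Date entries in the KLF1 list were turned back into the March and Sept symbols. Peaks overlapped if they shared at least 1 bp. Chromosome-centred values are the authors' log2 fold change minus the median of tested genes on that chromosome.

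Every member is named. Full values are given for members called, at an unadjusted p below 0.05, highest in their family or with peaks of both factors. Of the lists, each called gene was to be named. Alternatives covered the threshold, pseudocounts of 1 and 0.1, filters, centring, peak distance and height, overlap and motif. Calls, overlaps and motif searches were checked on simulated data. Python 3.11.15, pandas 2.3.3, NumPy 2.4.6 and matplotlib 3.10.9 were used.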

Additional observations from a re-analysis of the deposited data

How the results depend on the processing

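No paired analysis was possible because the deposited table holds 1 pooled value per group, and for the same reason no replicate could be left out. The 2 members called became 5 at an unadjusted p below 0.05 and 1 with a change of at least 2-fold as well. The 0 other splicing genes called became 2 at q below 0.1 and 22 at an unadjusted p below 0.05. Of all tested genes 7.93% were higher and 7.47% lower at that p, and their shares at the other thresholds are not given here. The median log2 fold change of the members, 0.06, was 0.04 when centred on all tested genes and 0.04 when centred on the same chromosome. Among peaks above the middle of each list by enrichment rank, 5 members had a KLF3 peak, 3 a KLF1 peak and 1 both. The shares of all tested genes at that height are not given here. With a summit within 1 kb, 2 had a KLF1 peak and 1 both; counting any peak within 1 kb of the start, an alternative chosen after seeing the data, 3 had a KLF1 peak. The CCNCNCCC count of 26 promoters was 7 with CCACNCCC. Members stood above all genes with CCNCNCCC (68.4% against 51.9%) and below them with CCACNCCC (18.4% against 19.7%). Beside tested genes, at 70.4% and 25.5% in that order, members stood below with both. The median of the members with a KLF3 peak, 0.05, turned to -0.06 when centred on the same chromosome, and that of the members with a KLF1 peak, 0.16, became 0.00, alternatives added after seeing the data. The other results kept their direction under the alternatives run, and the cause of these shifts was not tested beyond each setting's own construction. Depth per library is unknown, so what it limits cannot be stated.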

Other observations

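Some splicing genes outside the set had larger values than most members, without passing the authors' q below 0.05; they were picked after their values were seen. Snrnp25 had the most positive value of these genes, at 4.05 FPKM in J2E-KLF3-ER and 1.64 FPKM in J2E (log2 fold change 1.31, q = 0.304 in the authors' deposited table). Snrnp48, of the minor spliceosome, was at 16.3 FPKM in J2E-KLF3-ER and 9.65 FPKM in J2E (log2 fold change 0.76, q = 0.0647 in the authors' deposited table). Srek1, an SR-related gene, was at 71.3 FPKM in J2E-KLF3-ER and 50.3 FPKM in J2E (0.50, q = 0.0558 in the authors' deposited table). Opposite in sign were Zmat5, of the minor spliceosome, at 4 FPKM in J2E-KLF3-ER and 9.5 FPKM in J2E (-1.25, q = 0.148), and Gemin7, of the SMN complex, at 10.7 and 20.4 FPKM in that order (-0.94, q = 0.104), in the authors' deposited table. Gemin7 had peaks of both factors assigned, and Zmat5, Snrnp25, Snrnp48 and Srek1 had none.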
